A study of Homo sapiens with 4 samples.

Results

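The FOXO transcription factor genes FOXO1, FOXO3 and FOXO4 and 7 genes linked to them, SESN3, CCNG2, TP53INP1, IRS2, CDKN1B, BCL6 and PIK3IP1, were followed across both lines. All 10 had a probe set naming them alone, among 18377 genes named that way, and each was read from 1 probe set. SESN3, CCNG2 and TP53INP1 were selected on their siTAZ minus siNTC differences, which had been seen to be positive in these arrays, and the other 7 for their link to FOXO. The siTAZ differences of all 10 are therefore given as a description, without a test. The samples were the established human lung adenocarcinoma lines A549 and H441, each transfected with siNTC, the control siRNA, or siTAZ, an siRNA against TAZ, the transcriptional co-activator encoded by WWTR1. RNA was taken at 48 h and hybridised to 1 whole-transcript Affymetrix array per combination, 4 arrays in all, so no group has a replicate. All 4 samples went through the same lipid transfection. The siRNA sequences are not given in the labels.

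FOXO factors are forkhead transcription factors that sit at the end of the insulin and PI3K-AKT pathway. When growth factors activate AKT, it phosphorylates them, 14-3-3 proteins bind the phosphorylated form, and the factors are held in the cytoplasm. When signalling falls they enter the nucleus and act on genes for cell cycle arrest, cell death, stress defence and autophagy, and on genes such as IRS2 that feed back on insulin signalling. Because this control is mostly on the protein, the RNA level of a FOXO gene does not report the activity of its product. RNA of the target genes was measured here, and FOXO protein, its phosphorylation and its location were not.

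Of the arrest-linked genes, SESN3 and CCNG2 were at least 1.5-fold higher after siTAZ in both lines, and CDKN1B was lower in both. The 250 bases before the RefSeq start of each of these genes are shown (GRCh38.p14, 5′ to 3′ on the gene's strand). They lie at chr11:95232476-95232725 on the minus strand for SESN3, chr4:77156957-77157206 on the plus strand for CCNG2 and chr12:12717118-12717367 on the plus strand for CDKN1B. Capitals mark forkhead-type letters found by a search on both strands for GTAAACA, for ATAAACA, for CAAAACA and for the shorter TAAACA and the shorter AAACAA, where TAAACA is contained in the first and second.
SESN3: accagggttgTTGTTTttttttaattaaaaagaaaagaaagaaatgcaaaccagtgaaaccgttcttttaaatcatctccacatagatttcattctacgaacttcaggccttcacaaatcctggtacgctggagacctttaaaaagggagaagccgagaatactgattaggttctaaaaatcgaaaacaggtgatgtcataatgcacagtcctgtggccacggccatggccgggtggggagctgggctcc
CCNG2: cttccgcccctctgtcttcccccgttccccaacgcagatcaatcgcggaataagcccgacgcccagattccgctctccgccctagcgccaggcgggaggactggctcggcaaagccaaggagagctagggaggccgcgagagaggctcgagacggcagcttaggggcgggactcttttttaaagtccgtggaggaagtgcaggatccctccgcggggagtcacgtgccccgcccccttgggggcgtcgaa
CDKN1B: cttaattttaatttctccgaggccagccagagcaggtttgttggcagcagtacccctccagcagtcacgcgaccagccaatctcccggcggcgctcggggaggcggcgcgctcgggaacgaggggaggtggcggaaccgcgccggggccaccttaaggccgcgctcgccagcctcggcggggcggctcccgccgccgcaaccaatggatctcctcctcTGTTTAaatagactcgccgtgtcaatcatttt
SESN3 held AAACAA on the opposite strand, from 240 to 235 bases before the start, and CDKN1B held TAAACA on the opposite strand, from 32 to 27 bases before it. CCNG2 had no match before its start, and its AAACAA lay from base 12 to base 17 after it. Before the start, the full GTAAACA element was in 0 of the 14 windows of the 9 genes with an entry, against 2.98% of all 35116 windows of that length. FOXO4 and PIK3IP1 held it after the start, from base 24 to 30 and from base 17 to 23. Before the start, ATAAACA was in 1 of the 14 windows, of FOXO3, against 3.77% of all windows. CAAAACA was in 1 of the 14 there, of IRS2, against 4.3%. Letters as short as these are common: TAAACA was in 11% of all windows and in 2 of the 14, and AAACAA in 15.9% and in 5 of the 14. A match describes the letters and is not a measured binding site. The windows differed in composition, with a GC content of 42.8% for SESN3, 65.6% for CCNG2 and 64.4% for CDKN1B, against a median of 58% over all windows.

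The median log2 signal was 6.05 and 6.06 on the A549 arrays and 6.17 and 6.25 on the H441 arrays, and across probe sets the siTAZ and siNTC arrays had a Pearson correlation of 0.994 for A549 and 0.995 for H441. WWTR1 was lower after siTAZ by 5.27-fold in A549 and 4.40-fold in H441, which left 19.0% and 22.7% of the control signal. The 6 epithelial markers examined, KRT8 and KRT18 among them, were above the table median of 6.13 on all 4 arrays. Of the markers of other cell types, 3 of 5 for leukocytes (PTPRC, CD3E and LYZ), 3 of 4 for endothelium (PECAM1, VWF and CDH5) and 2 of 5 for fibroblasts (DCN and PDGFRB) were below it on all 4. The exceptions were CD68 and COL1A1, above it on all 4 arrays, CD14, above it in A549, KDR and LUM, above it in H441, and COL1A2, above it on 1 array. Of 4 markers of the alveolar and club cell lineage, NKX2-1, SFTPB and NAPSA were above it in H441 alone, while FOXA2 was above it on all 4 and higher in A549.

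The 3 FOXO genes differed little between siNTC and siTAZ in either line. FOXO1 had log2 signals of 7.86 with siNTC and 7.67 with siTAZ in A549, and 8.08 and 8.21 in H441. It was 1.14-fold lower in A549 and 1.09-fold higher in H441. FOXO3 was listed at the same value, 6.30, on both A549 arrays and had 6.80 and 6.87 in H441. The tie was not the only one, since 757 of 28869 probe sets had equal values on both A549 arrays and 555 on both H441 arrays. Another probe set is annotated to FOXO3 together with FOXO3B, its near-identical copy, and was not used. Because the copy is near-identical, some of the FOXO3 signal read here may come from it, which was not tested. FOXO4 had 6.96 and 7.17 in A549 and 7.49 and 7.57 in H441, higher after siTAZ by 0.22 and 0.07 on the log2 scale. Median centring of each array turned the H441 differences of FOXO3 and FOXO4 to -0.01, and FOXO3 in A549 then lay at -0.01 as well.

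**Figure D1:**
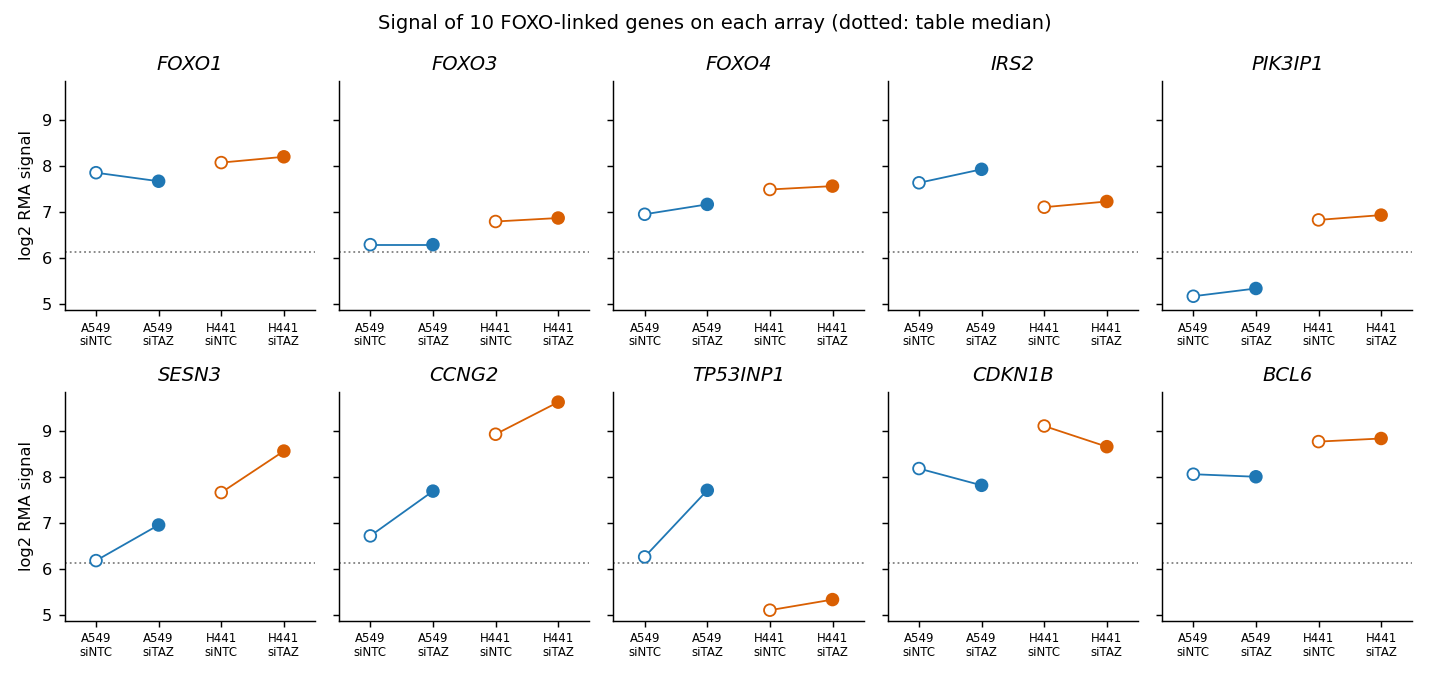
The log2 RMA signal of each of the 10 genes (y axis) on each array (x axis), with open circles for siNTC, filled circles for siTAZ, blue for A549 and orange for H441; lines join the 2 arrays of a line, and the dotted line is the table median of 6.13. SESN3 and CCNG2 slope upward in both lines, TP53INP1 mainly in A549 and from above the dotted line there, and CDKN1B slopes downward in both.

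IRS2 and PIK3IP1 act on the pathway above FOXO. IRS2, an adaptor that carries the insulin and IGF receptor signal and is itself a FOXO target, had 7.64 and 7.93 in A549 and 7.11 and 7.23 in H441. Its siTAZ array was the higher in each line, by 0.29 and 0.12. PIK3IP1, a transmembrane inhibitor of PI3K, had 5.17 and 5.34 in A549, below the table median on both arrays, and 6.83 and 6.94 in H441. The differences were 0.17 and 0.10, and in H441 the values were between 0.01 and 0.10 over the scalings tried.

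Among the growth arrest genes, SESN3 and CCNG2 were higher after siTAZ in both lines. SESN3 encodes a sestrin, a stress-induced protein that restrains mTORC1 signalling. In A549 it went from 6.18 on the siNTC array to 6.96 on the siTAZ array, 1.71-fold higher, and in H441 from 7.66 to 8.56, 1.87-fold higher. In H441 this difference ranked 3 from the top of 11911 genes at or above the table median, and in A549 it ranked 92 of 11405. CCNG2 encodes cyclin G2, an unconventional cyclin that is high in resting cells and slows the cell cycle. It had 6.72 and 7.69 in A549, 1.96-fold higher, and 8.93 and 9.63 in H441, 1.62-fold higher, at ranks 40 and 16. For SESN3 and CCNG2 the siTAZ array of H441 was the highest of the 4 and the siNTC array of A549 the lowest. The siTAZ signal of A549 did not reach the siNTC signal of H441 for either gene.

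TP53INP1, a p53-induced gene whose product takes part in autophagy and cell death, showed its difference mostly in A549. It had 6.26 with siNTC and 7.71 with siTAZ there, 2.73-fold higher and rank 8 of 11405. In H441 it had 5.10 and 5.33, both under the table median, with a difference of 0.23. RMA narrows differences between dim signals, so the fold in H441 may be understated. Whether the response differed between the lines was not tested, because 4 arrays leave no replicate for it.

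CDKN1B and BCL6 did not follow SESN3 and CCNG2. CDKN1B encodes the CDK inhibitor p27, the textbook arrest target of FOXO factors. It had 8.18 with siNTC and 7.82 with siTAZ in A549, 1.29-fold lower, and 9.11 and 8.66 in H441, 1.37-fold lower, and it was the one gene of the 10 that was lower in both lines. Counted from the lowest difference, it ranked 495 of 11405 in A549 and 319 of 11911 in H441. BCL6, a transcriptional repressor gene activated by FOXO factors, had 8.06 and 8.00 in A549 and 8.77 and 8.84 in H441. Its differences of -0.06 and 0.07 were among the smallest of the 10, and the H441 value was -0.02 after median centring.

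Counted together, 6 of the 10 were higher after siTAZ in both lines, 1 lower in both, 2 of opposite sign in the lines, and FOXO3 was tied in A549. Of all genes at or above the table median, 50.9% were higher after siTAZ in A549 and 50.8% in H441. These are shares in each line alone, not the share higher in both. Opposite signs were found in 41.1% of all 12740 genes tested. The 6 include the 3 chosen for being higher, and FOXO4, whose H441 difference turned to -0.01 after median centring. The median difference was 0.19 in A549 and 0.11 in H441, against 0.0037 and 0.01 over all 12740 genes tested. At least 1.5-fold higher were 3 of the 10 in A549 and 2 in H441, where 1.76% and 0.479% of all genes at or above the table median were. Because 3 of the 10 were chosen for being higher, nothing is read from these counts, medians and shares. At least 1.5-fold lower were 0 of the 10 in either line, where 1.07% and 0.974% of those genes were. The smallest difference past 1.5-fold was 0.77, for SESN3 in A549, and 0.70, for CCNG2 in H441, and the largest in size short of it was that of CDKN1B, at -0.36 and -0.45. The other 7 genes stayed under 1.5-fold in both lines.

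**Figure D2:**
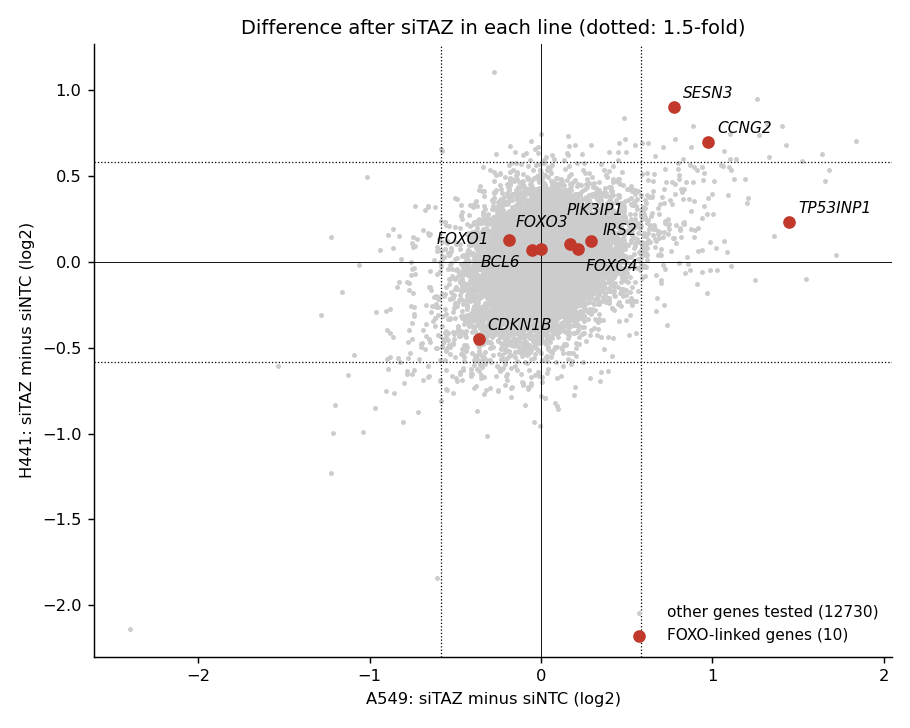
The siTAZ minus siNTC difference in log2 signal in A549 (x axis) and in H441 (y axis) for the 10 FOXO-linked genes (red) and the other 12730 genes tested (grey), with dotted lines at 1.5-fold. SESN3 at 0.77 and 0.90 and CCNG2 at 0.97 and 0.70 lie past 1.5-fold on both axes, TP53INP1 on the A549 axis alone, and the remaining 7 lie inside both pairs of dotted lines.

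Paralogs of these genes were read as a comparison within families. SESN1 and SESN2, the other sestrin genes, differed by 0.02 and -0.04 in A549 and by 0.21 and -0.20 in H441. CCNG1, cyclin G1, had 0.07 and -0.20, and TP53INP2 had 0.19 and 0.09. CDKN1A, which encodes the CDK inhibitor p21, had -0.0031 and 0.21, and CDKN1C, which encodes p57, had -0.04 and 0.20. IRS1 had -0.09 and 0.07 and BCL6B 0.04 and 0.38, while IRS4 was too dim to be tested. The 8 paralogs tested had 0 calls in limma over both lines (adjusted p under 0.05), where 2.47% of all 12740 genes were called. At an unadjusted p under 0.05 they had 0 as well, where 13.2% of all genes stood. No paralog reached 1.5-fold in either line, and none was compared directly with its relative, since levels of different probe sets cannot be set against each other.

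The wider FOXO pathway, pooled with the paralogs and a list of p53 target genes, was called about as often as all genes were. The lists held 130 genes without the 10, of which 121 had a probe set naming them alone and 114 were bright enough to test. Limma called 0 higher and 3 lower (YWHAH, CCND1 and BCL2L1), 2.63% of those tested against 2.47% of all genes, or 1.19% higher and 1.29% lower. At an unadjusted p under 0.05 stood 16 genes, 14.0% of the list against 13.2% of all genes. Of the 3, YWHAH alone kept its call after cyclic loess and without the filter on dim genes. After median centring the calls over all genes moved from 151 higher and 164 lower to 126 higher and 279 lower. The median difference of the 114 was -0.04 in A549 and -0.0031 in H441, against 0.0037 and 0.01 over all genes tested. A call has no replicate inside a line behind it, and the SE given is limma's moderated one, which draws mostly on the spread over all genes.

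Insulin and PI3K-AKT signalling genes, which control FOXO, had 0 calls among 22 tested. By the mean absolute difference over both lines, the largest were in PHLPP2, an AKT phosphatase gene, with 0.41 in both lines (limma adjusted p = 0.061), PIK3CB with -0.28 and -0.35, AKT1 with 0.31 and 0.32 and PHLPP1 with -0.40 and -0.18. PIK3CD, with -0.44 in A549 and 0.02 in H441, and PIK3R1, with 0.40 and -0.02, differed about as much in A549 alone; both were named after their values were seen. The list's median was -0.10 in A549 and -0.00069 in H441.

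Among 26 genes whose products bind or modify FOXO proteins, YWHAH alone was called. It encodes 14-3-3 eta, of the family that retains phosphorylated FOXO in the cytoplasm and also binds TAZ. YWHAH had 8.85 and 7.65 in A549 and 9.37 and 8.54 in H441 on the siNTC and siTAZ arrays, so that siTAZ was the lower in each line. Over both lines it fell by 1.02, with a limma SE of 0.12 and an adjusted p of 3.58e-05. That call held under the 6 alternatives that kept the cell line in the fit, with a limma adjusted p from 1.19e-08 to 0.045. The highest of these, 0.045, came after cyclic loess and was close to the limit for a call. Without the filter on dim genes the adjusted p was 0.014, and without the cell line in the fit the call was lost. The other 14-3-3 genes had differences between -0.38 and 0.20 in A549 and between -0.21 and 0.39 in H441. STK3, which encodes the Hippo kinase MST2, had 0.53 and -0.25, SKP2, which encodes a ubiquitin ligase subunit that targets p27 and FOXO1, had -0.27 and -0.40, and SMAD4 had -0.30 and -0.22. None of these 3 passed the test.

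Of 14 other cell cycle targets tested, CCND1 was the only call. It encodes cyclin D1, which FOXO factors are known to repress. CCND1 had 10.22 and 9.47 in A549 and 10.71 and 10.45 in H441, and over both lines it fell by 0.50, with a limma SE of 0.13 and an adjusted p of 0.032. That call was lost after quantile normalization (adjusted p = 0.14), after cyclic loess (0.25) and without the filter on dim genes (0.15), with a range of 0.0055 to 0.25 over the 6 alternatives that kept the cell line in the fit. RBL2, which encodes the pocket protein p130, had -0.14 and -0.37, BTG1 0.44 and -0.05 and CDKN2D 0.13 and 0.30, and none of them passed. The list's median was 0.01 in A549 and -0.03 in H441.

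Of 8 cell death targets tested, BCL2L1 was the only call. It encodes BCL-XL, which protects cells from apoptosis, and FOXO factors are known to lower it through BCL6. BCL2L1 had 10.60 and 9.72 in A549 and 11.24 and 10.83 in H441, and over both lines it fell by 0.65, with a limma SE of 0.13 and an adjusted p of 0.0046. That call was lost after cyclic loess (adjusted p = 0.13) and without the filter on dim genes (0.063), over a range of 0.00021 to 0.13 for the same 6 alternatives. The death genes BNIP3L, with 0.31 and 0.26, PMAIP1, with 0.23 and 0.25, and TNFSF10, with 0.20 and -0.25, did not pass. TNFSF10 was under the table median on both A549 arrays. The list's median was 0.12 in A549 and 0.05 in H441.

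Stress and metabolic targets, 14 tested, and autophagy and atrophy targets, 12 tested, had 0 calls. The first list had a median of 0.05 in A549 and 0.03 in H441, and the second -0.04 and 0.03. CAT, catalase, had 0.49 and 0.26 and PDK4, a brake on pyruvate oxidation, 0.43 and 0.15, while TRIB1 had -0.68 and 0.30 and XBP1 0.46 and 0.05. GABARAPL1, an autophagosome protein gene, had 0.12 and 0.47, ATG12 0.36 and 0.03, ULK1 -0.13 and 0.26 and RRAGD -0.30 and 0.04. PDK4 and RRAGD were under the table median on both H441 arrays. Together 3 of these 26 targets had an unadjusted limma p under 0.05, where 13.2% of all genes did.

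Since TP53INP1 is a p53 target, 22 tested p53 target genes were read beside it. Limma called 0 of them, against 2.47% of all genes, and 2 had an unadjusted p under 0.05, against 13.2% of all genes. Their median was -0.0040 in A549 and 0.06 in H441. In A549, where TP53INP1 differed by 1.45, the largest p53 target difference was 0.38, for RRM2B. GDF15 had -0.0048 and 0.54, AEN -0.35 and -0.17 and PMAIP1 0.23 and 0.25.

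**Figure D3:**
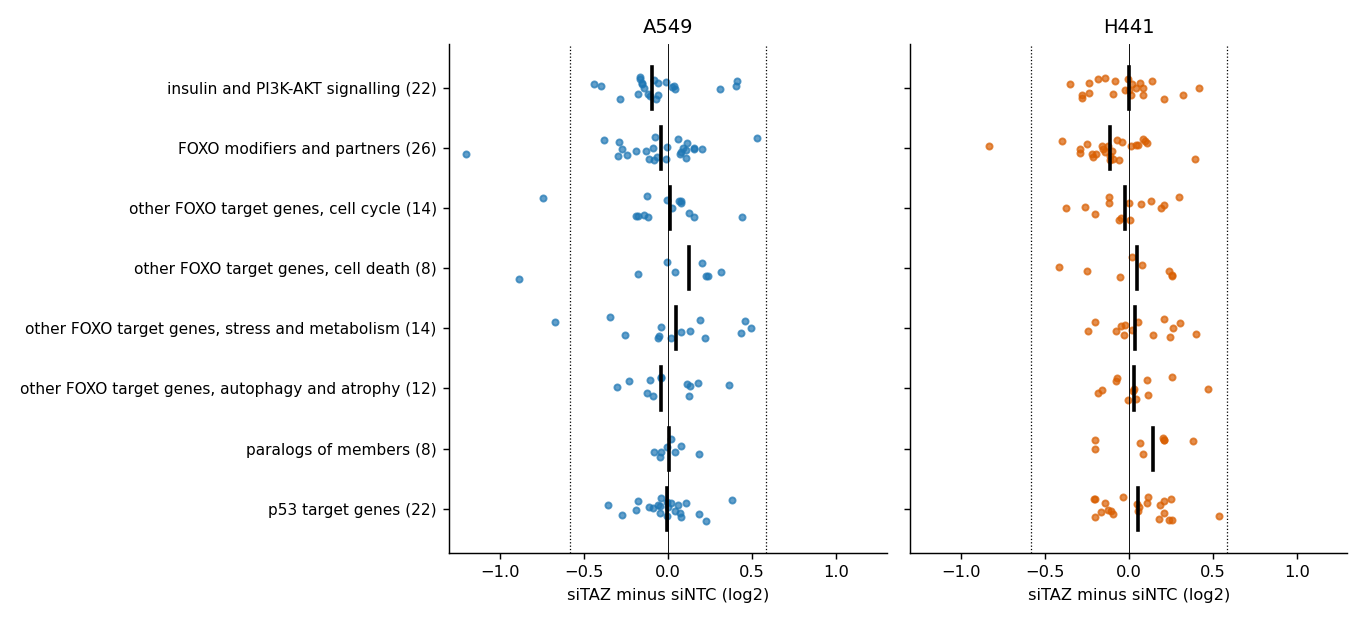
The siTAZ minus siNTC difference in log2 signal (x axis) of each tested gene in 8 lists (y axis, number of genes tested in brackets) in A549 (left) and H441 (right), with a black bar at the list's median and dotted lines at 1.5-fold. Apart from YWHAH, CCND1, BCL2L1 and TRIB1 in A549 and YWHAH in H441, all lower after siTAZ, every tested gene lies inside the dotted lines.

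The levels of the 10 genes also differed between A549 and H441, a comparison that was not used to choose them, although the siTAZ arrays enter it. In limma, with siRNA as a term, the 8 genes at or above the table median on all 4 arrays differed between the lines at an adjusted p under 0.05, 7 higher in H441 and 1, IRS2, higher in A549. Such differences were the rule, since 68.7% of all 10054 genes that bright were called, 53.2% higher in H441 and 15.5% higher in A549. Over all 12740 genes tested the shares were 71.9%, 52.8% and 19%. TP53INP1 and PIK3IP1 reached the median in 1 line each and are given as levels, without a test. The median gene was lower in A549 than in H441 by 0.31 on the deposited scale, and after cyclic loess, where that median was 0.02, calls over all genes were split 49.4% higher in H441 in place of 73.5%. Values below are therefore followed by the difference after cyclic loess where that ends the call.

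CCNG2 was 4.21-fold higher in H441 (A549 minus H441 -2.07 ± 0.12, limma SE, 2 arrays per line; limma adjusted p = 1.60e-13) and SESN3 2.92-fold higher there (-1.54 ± 0.12). CDKN1B (-0.88 ± 0.12) and BCL6 (-0.77 ± 0.12) were higher in H441 too, by less after quantile normalization, at -0.50 and -0.39. IRS2 was 1.53-fold higher in A549 (0.62 ± 0.12), or 0.92 on the log2 scale after quantile normalization. These 5 kept their call and direction under each scaling, probe set rule, filter and fit tried. PIK3IP1 averaged 5.26 in A549, under the table median, and 6.89 in H441. TP53INP1 averaged 6.99 in A549 and 5.22 in H441, under the median there. Its gap between the lines was 1.16 on the siNTC arrays and 2.38 on the siTAZ arrays, which include the A549 value it was selected on.

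Between the lines, the FOXO genes themselves lay nearer to the median gene than CCNG2, SESN3, CDKN1B, BCL6 and IRS2 did. FOXO3 was -0.54 ± 0.12 (limma adjusted p = 0.00024), or -0.24 relative to the median of all genes. FOXO4 was -0.47 ± 0.12 and FOXO1 -0.38 ± 0.12 (adjusted p = 0.0011 and 0.0081), or -0.16 and -0.07 relative to that median. After cyclic loess FOXO1 was -0.03 (adjusted p = 0.85) and FOXO4 -0.17 (adjusted p = 0.20), and both had lost their call, as they had after quantile normalization and FOXO1 also after median centring, while FOXO3 was -0.31 (adjusted p = 0.027). Over all alternatives the adjusted p ran from 0.0081 to 0.85 for FOXO1, from 0.0011 to 0.20 for FOXO4 and from 0.00024 to 0.027 for FOXO3.

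**Figure D4:**
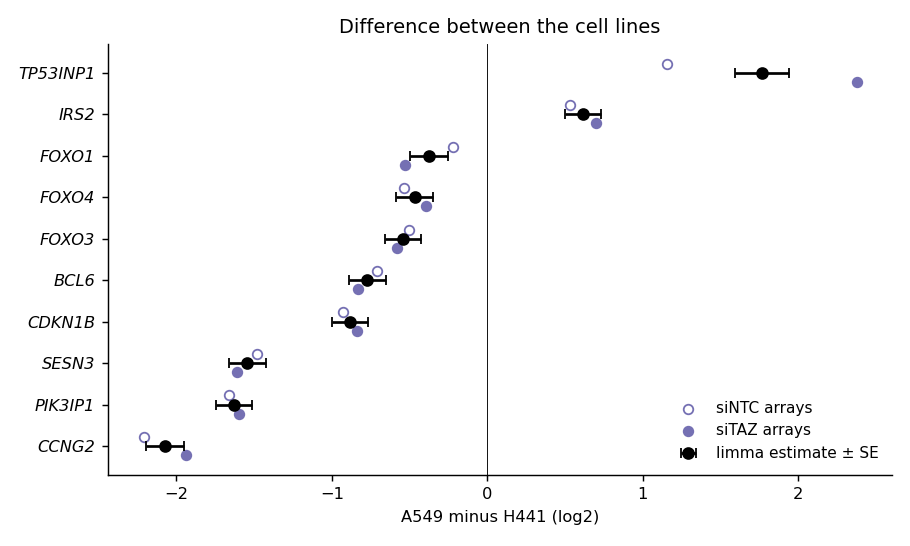
The A549 minus H441 difference in log2 signal (x axis) of the 10 genes (y axis), with the limma estimate and its SE in black, the difference between the siNTC arrays as open circles and that between the siTAZ arrays as filled circles. TP53INP1 and IRS2 lie right of 0, the other 8 left of it, and the TP53INP1 circles, at 1.16 and 2.38, are the farthest apart. PIK3IP1 in A549 and TP53INP1 in H441 are below the table median, so their positions are descriptive.

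The genes whose 4-array profile was closest to those of SESN3, CCNG2 and TP53INP1 were found by Euclidean distance after subtracting each gene's mean, among 12730 other genes tested. For SESN3 they were ATP11A, at a distance of 0.19 on the log2 scale, P2RY6 (0.38), SPOPL (0.39), PELI1 (0.39) and KCTD20 (0.40). ATP11A differed by 0.62 in A549 and by 0.69 in H441. For CCNG2 they were TMEM87B (0.15), RAB27A (0.16), EMP2 (0.26), JOSD1 (0.33) and GCH1 (0.38), with differences of 1.10 and 0.60 for TMEM87B and 0.95 and 0.48 for RAB27A. For TP53INP1 they were TMEM64 (0.32), ELOVL4 (0.38), BDKRB1 (0.42), P4HA3 (0.44) and SLC51B (0.47), with differences of 1.55 and -0.10 for TMEM64 and 0.84 and 0.46 for SLC51B. These distances are over 4 arrays, of which pairs share a line or an siRNA, and they describe likeness in these arrays alone.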

How the data were processed

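RNA of 4 samples was hybridised to 1 array each, per the labels. The authors deposited one log2 signal per probe set and array, computed with RMA according to the submitters' processing notes, whose version and joint use on the arrays are not stated in the labels. That the values are log2 was inferred from their range, 4.20 to 14.83 on 28869 probe sets.

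The platform annotation gave 19310 probe sets 1 symbol, 1752 several and 7807 none, and all but 31 of the first matched the GRCh38.p14 RefSeq gene table by Entrez identifier. The brightest probe set stood for the 685 genes with more than 1. Genes whose highest value reached the table median (6.13) were fitted in limma 3.58.1 (R 4.3.3, lmFit and eBayes, two-sided, cell line and siRNA as terms, Benjamini-Hochberg over all 12740 genes), with 1 residual degree of freedom and a prior worth 22.3. The p-values test the siRNA term or the cell line term. The spread behind them comes from the difference in response between the lines and, mostly, from the prior over all genes. With no repeat inside a group, they do not measure variation between repeats, and the number of arrays limits precision. Within-line folds used genes whose brighter array reached that median. Alternatives were median centring, quantile normalization, cyclic loess, the mean of probe sets, no or a stricter filter, and fits without cell line or siRNA.

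The members and lists were chosen with earlier results of these data known. The naming rule took all 10 members, WWTR1, all measured paralogs, each called list gene, otherwise up to 4 of a list by mean absolute difference, and 5 nearest profiles for SESN3, CCNG2 and TP53INP1. Of the 130 list genes, 9 are not analysed here. Promoter windows came from RefSeq (GRCh38.p14), for 9 of the 10 members; only those windows are given coordinates, since no genome build is given for the probe sets.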

Additional observations from a re-analysis of the deposited data

Results flagged for a closer look

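Of the 61 members, list genes and nearest profiles that the naming rule took, 16 had siTAZ differences of opposite sign in A549 and H441. Each was read from 1 array per group, so the difference between the lines was not tested. PIK3CD (-0.44 in A549, 0.02 in H441) and PIK3R1 (0.40 and -0.02), named outside that rule, also had opposite signs and are not counted. Over all 12740 genes tested, 41.1% had opposite signs. The naming rule took genes by limma call, size of difference or closeness of profile, each of which bears on the signs. IRS4 is among the 16 although it was too dim to be tested. Nothing is therefore read from the 16 of 61 beside that share. Each value that follows is the A549 difference minus the H441 difference on the log2 scale. Of the 10 FOXO-linked genes, FOXO1 had -0.31 and BCL6 -0.12, and BCL6 took the same sign in both lines after median centring.

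Of the pathway and p53 target genes, TRIB1 had -0.98, STK3 0.78, GDF15 -0.54, BTG1 0.49 and TNFSF10 0.45. ULK1 had -0.38 and RRAGD -0.35. Of the paralogs, IRS4 had -0.31, CCNG1 0.28, CDKN1C -0.25, CDKN1A -0.21 and IRS1 -0.15. Of the genes with profiles close to that of TP53INP1, TMEM64 had 1.64 and BDKRB1 1.07.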

How the results depend on the processing

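Under the 4 other scalings and probe set rules, 3 of the 10 genes stayed at least 1.5-fold higher in A549 and 2 in H441, and each difference moved by less than 0.12, the prior SD of limma. Over all genes, the limma calls for siTAZ were 151 higher and 164 lower, with 279 lower after median centring, 80 and 79 after quantile normalization, 9 and 11 after cyclic loess, 47 and 45 without the filter on dim genes, and 0 and 0 without the cell line (11 at an unadjusted p under 0.05). The 3 pathway calls, all lower, became 1 after cyclic loess, 1 without the filter and 0 without the cell line; the cause was not tested, beyond the difference between the lines entering the spread in the last. Between the lines 9158 genes were called, 71.9% of the 12740 tested, and the number stayed within 1.5 times of that under each alternative. PIK3IP1 and TP53INP1, each dim in 1 line, are not counted among the calls, and the stricter filter left them untested. The other 8 of the 10 genes were called in the main fit. FOXO1 lost its call after median centring, quantile normalization and cyclic loess, and FOXO4 after the last 2 of these. FOXO3, SESN3, CCNG2, IRS2, CDKN1B and BCL6 kept theirs under each alternative. The fit with cell line as a term already pairs the siTAZ and siNTC arrays of a line, and the labels give no replicate numbers for any other pairing. RMA signals near the background limit the values of TP53INP1 in H441 and PIK3IP1 in A549. Among the list genes named, the same holds for TNFSF10 and BCL6B in A549 and for PDK4 and RRAGD in H441.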
